A study of Mus musculus with 6 samples.

Results

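The mouse miRNAs mmu-miR-221 and mmu-miR-222 were followed by small RNA sequencing of 6 libraries from N2A (Neuro2A), a mouse neuroblastoma line. All cells were given an siRNA at 100 nM with a lipid reagent. For 3 libraries it was the control siRNA (si-NC, here also the controls) and for 3 it was directed at circCpsf6 (si-circCpsf6), a circular RNA named for the gene Cpsf6. Values are given in the order of replicates 1, 2 and 3 of each group. The line, the medium and the transfection were shared by both groups, no untransfected cells are among these samples, and the level of circCpsf6 was not analysed here. Members were found by name, as mouse entries whose name without arm, copy number and variant suffix is miR-221 or miR-222. That gave 2 of 1080 entries per library, miR-221-3p and a variant of miR-222-3p named R+1, and both passed the filter on low values. The suffix is read here as 1 base added at the right end. This rule matched no entry named for the 5p arm of either hairpin.

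MicroRNAs (miRNAs) are short RNAs that guide Argonaute proteins to messenger RNAs, mainly by pairing with the seed, the bases near their 5′ end, and lower the output of those messages. miR-221 and miR-222 are processed from neighbouring hairpins on the X chromosome and share a seed. They are best known for repressing Cdkn1b, which encodes the cell cycle inhibitor p27, and Kit, a receptor tyrosine kinase, and they are abundant in many dividing cells and tumours. Their link to proliferation is background knowledge and was not measured in these libraries.

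The mature sequences are shown because the shared seed is what joins the members into one family. They were taken from RefSeq (GRCm38.p6), where both entries matched by name, and are printed 5′ to 3′ with the seed, bases 2 to 8, in capitals. The last line is miR-1928, the other mature miRNA with that seed among 1738 in the RefSeq table.
mmu-miR-221-3p: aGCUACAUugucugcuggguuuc
mmu-miR-222-3p: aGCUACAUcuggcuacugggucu
mmu-miR-1928: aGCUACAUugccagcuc
The first 8 bases of miR-221-3p and miR-222-3p are identical, and 11 of their 23 positions match when they are laid side by side without gaps. They are thus not near-identical copies of each other. miR-1928 matches miR-221-3p over its first 10 bases and had no entry among the 1080, so no value of another miRNA with this seed stands beside the members.

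The hairpins are shown with the 3p arm in capitals, since that arm holds every value reported for them here.
Mir221: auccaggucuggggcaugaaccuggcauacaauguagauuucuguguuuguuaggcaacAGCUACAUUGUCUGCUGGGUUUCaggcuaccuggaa
Mir222: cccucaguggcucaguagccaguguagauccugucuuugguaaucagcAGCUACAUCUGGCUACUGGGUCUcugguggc
In GRCm38 the Mir221 hairpin lies on chromosome X at 19146294 to 19146388 and the Mir222 hairpin at 19146893 to 19146971, both on the minus strand and 504 bases apart. In the GENCODE M21 annotation no other gene overlaps the pair. The nearest annotated gene is the noncoding Gm14636 on the same strand (19156981 to 19167241), 10009 bases away on the upstream side, so the hairpins are placed as intergenic in this annotation. The build named in the submitters' processing notes is mm9, and these positions are not on it.

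The pairing that a seed permits can be seen in the Cdkn1b message. The complement of bases 2 to 8, ATGTAGC, was searched on the message strand of the 3′ UTR of transcript Cdkn1b-201 (GENCODE M21, chromosome 6) and was found once, at bases 198 to 204 of 1280, here in capitals and followed by an a.
Cdkn1b: taaaagcattggATGTAGCattgc
Of 6324 mouse 3′ UTRs of at least that length, 9.2% hold the same letters in their first 1280 bases. A match of letters is a description and not a measured site, and messenger RNA was not measured in these samples.

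Both miRNAs were listed at 31 or less in 4 of the 6 libraries and at 83 or more in si-NC replicates 2 and 3. The controls held 5, 83 and 340 normalized reads of miR-221-3p, and the si-circCpsf6 libraries held 6, 0 and 27. Its highest values were those of si-NC replicates 3 and 2, while si-NC replicate 1 lay within the range of the si-circCpsf6 libraries, so the groups overlapped, as they did for all but 11.7% of the entries tested. For miR-222-3p the controls held 0, 108 and 274 normalized reads and the si-circCpsf6 libraries 4, 5 and 31. The libraries fell in the same order at the top, with si-NC replicate 3 first, then si-NC replicate 2, then si-circCpsf6 replicate 3, and again si-NC replicate 1 did not lie above the si-circCpsf6 libraries. Normalized reads are the authors' read numbers after their scaling between libraries, so they give no read depth and no counting interval can be attached.

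**Figure D1:**
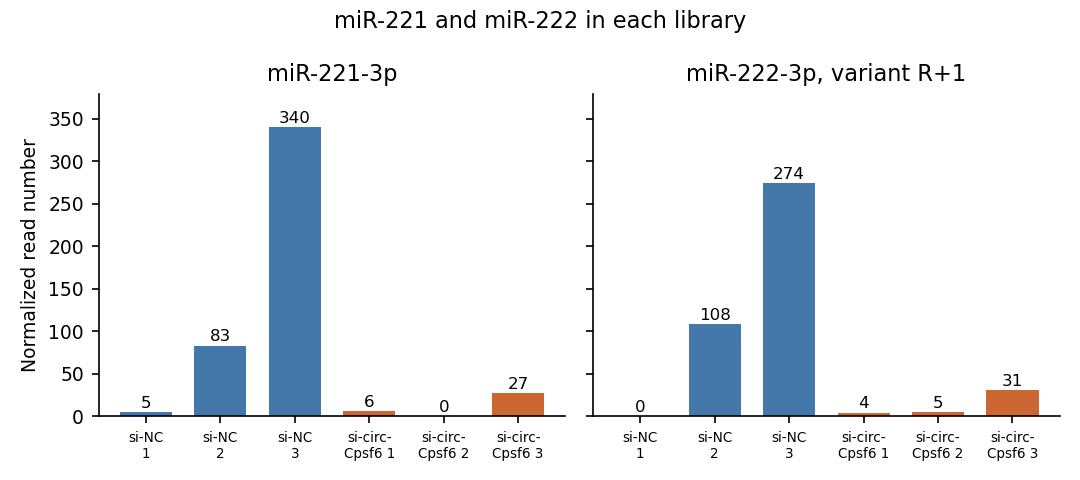
Normalized read number (vertical axis, linear) of miR-221-3p and of the miR-222-3p variant R+1 in each of 3 si-NC (blue) and 3 si-circCpsf6 (orange) libraries, each bar being 1 library. The values of 340 and 274 in si-NC replicate 3 stand above all others, and si-NC replicate 1, at 5 and 0, sits with the si-circCpsf6 libraries.

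Added together, the pair came to 5, 191 and 614 normalized reads in the controls and to 10, 5 and 58 with the circCpsf6 siRNA. Scaled to 1000000 normalized reads per library, these sums were 1.64, 65.3 and 239 in the controls and 3.48, 1.53 and 20.1 with the circCpsf6 siRNA. Of everything listed for the pair over the 6 libraries, si-NC replicate 3 held 69.5% and si-NC replicate 2 held 21.6%. Where both members were above 0, the ratio of miR-221-3p to miR-222-3p was 0.769 and 1.24 in si-NC replicates 2 and 3 and 1.5 and 0.871 in si-circCpsf6 replicates 1 and 3. The members were thus listed at like levels within a library while the libraries differed widely. Over the 6 libraries their log2(value + 1) had a Pearson correlation of 0.85, a description over libraries that share depth and normalization.

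Group means were lower in si-circCpsf6 for both members, by less than the SD of the controls. The mean of miR-221-3p was 143 ± 175 for the controls and 11 ± 14.2 for si-circCpsf6 (mean ± SD of 3 libraries, also for later means), or 7.71% of the si-NC mean. That of miR-222-3p was 127 ± 138 and 13.3 ± 15.3, or 10.5% of the si-NC mean. In both cases the SD was larger than the mean of its own group. The sum of the pair was 270.0 ± 312 for the controls and 24.3 ± 29.3 for si-circCpsf6.

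The test across all entries (limma on log2(value + 1), 916 entries) called neither member. The log2 change of miR-221-3p was -3.26 (SE 1.69, 95% interval -7.13 to 0.62), with a Benjamini-Hochberg adjusted p of 0.735 by limma. For miR-222-3p it was -1.65 (SE 1.98, interval -6.19 to 2.88), with an adjusted p of 0.924 by limma. The unadjusted values by limma were 0.0888 and 0.426. The intervals run from a large decrease to a change above 0, so the size of a difference, or its absence, could not be fixed with these libraries. Across all entries, 0% of 916 had an adjusted p under 0.05 and 6.22% an unadjusted p under 0.05 by limma. A log2 change of -3 or lower was reached by 5 entries (0.546%), of which miR-221-3p is one, and 44.3% of all entries had a log2 change below 0. In the authors' deposited table the log2 of the ratio of group means was -3.71 for miR-221-3p (p = 0.322) and -3.23 for miR-222-3p (p = 0.289), without adjustment. The labels do not say whether replicates are separate cultures. The p-values therefore cover the spread between these libraries alone, which may be technical.

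**Figure D2:**
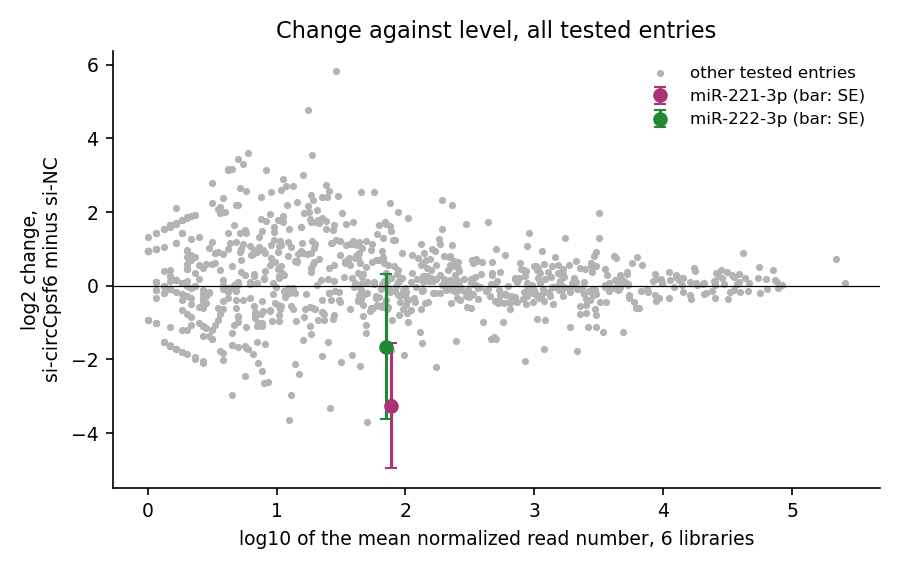
Log2 change on the log2(value + 1) scale, si-circCpsf6 minus si-NC (vertical), against log10 of the mean normalized read number over 6 libraries (horizontal) for 916 tested entries, with miR-221-3p and miR-222-3p in colour and their standard errors as bars. Both members lie below 0, at -3.26 and -1.65, and the error bar of miR-222-3p crosses 0.

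The size of each difference rested on single libraries. Without si-NC replicate 3 the control means were 44.0 for miR-221-3p and 54.0 for miR-222-3p, and the log2 changes were -1.95 and -0.082. Without si-NC replicate 1, the control library in which both were near 0, they were -4.86 and -4.13, with unadjusted p = 0.0119 and 0.00526 and an adjusted p of 0.501 for both by limma. For miR-222-3p the log2 change was -0.75 without si-NC replicate 2, -2.50 without si-circCpsf6 replicate 3 and -0.73 with a pseudocount of 0.1 in place of 1. For miR-221-3p it was -1.99 without si-circCpsf6 replicate 2, the library listed at 0. With weights per library it was -1.58 for miR-221-3p and turned to 0.089 for miR-222-3p.

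Among the si-NC libraries the members varied more than most mouse-named entries of like mean over all 6 libraries. Among 114 other mouse-named entries with a mean of 35.2 to 141, none had a larger SD of log2(value + 1) over the si-NC libraries than miR-222-3p, at 4.34, and their median was 0.82. For miR-221-3p this SD was 2.96, and 13 of 115 entries of like mean exceeded it. Within si-circCpsf6 the SD was 2.41 for miR-221-3p, exceeded by 3 of 115 entries, and 1.48 for miR-222-3p, exceeded by 8 of 114. The median was 0.48 in both sets. These sets were matched on the mean over all 6 libraries. The members' means within si-circCpsf6, 11 and 13.3, lay below the range of each set. The si-circCpsf6 counts therefore do not compare entries of like level in that group. A library at or near 0 widens this SD on the log scale, and each member has 1 such library in si-NC. In si-circCpsf6 replicates 1 and 2 the values were also low, at 6 and 0 for miR-221-3p and 4 and 5 for miR-222-3p. This comparison is a description with no test.

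**Figure D3:**
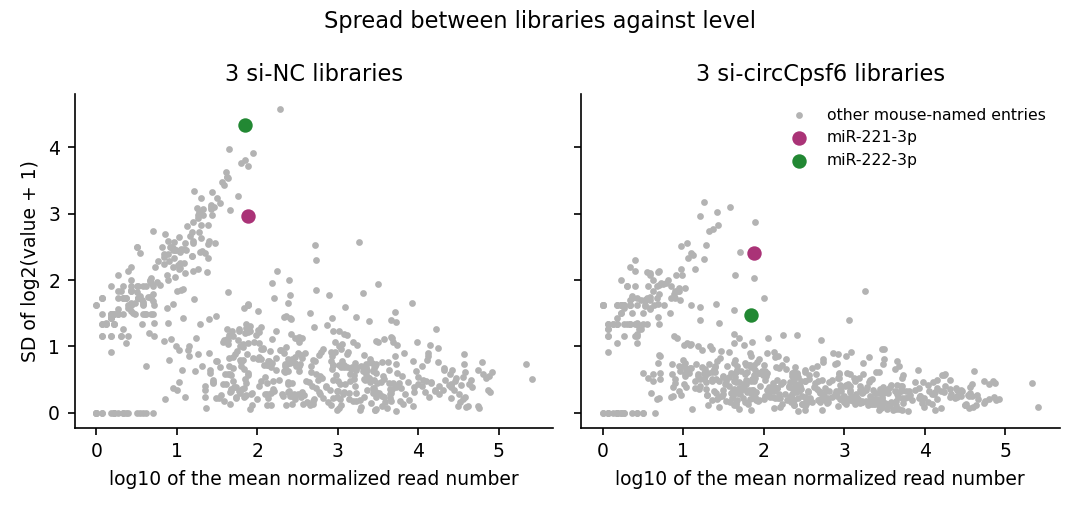
SD of log2(value + 1) over the 3 si-NC libraries (left) and the 3 si-circCpsf6 libraries (right) against log10 of the mean normalized read number, for mouse-named entries with a mean of 1 or more. miR-222-3p, at 4.34, and miR-221-3p, at 2.96, lie above most entries of their level in si-NC.

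si-NC replicate 3, the library with the most miR-221 and miR-222, also stood apart in the profile as a whole. It had 558 entries above 0 against 717 to 849 in the other libraries, and its total was 2570449 against 2874209 to 3268351 among the si-circCpsf6 libraries. Of 521 mouse-named entries with a mean of 10 or more, 28.0% were highest in si-NC replicate 3. For each other library this share was 7.29% to 20.0%. In si-NC replicate 3, 30 entries (5.76%), both members among them, were listed at 2 times or more of every other library. That count was not made for the other libraries. Another pattern had si-NC replicate 3 first, si-NC replicate 2 second and si-NC replicate 1 below the highest si-circCpsf6 library. It was held by 9 of the 521 entries (1.73%), both members included. Both patterns were drawn up from the members' own values, so that the members hold them is not a result. The part of library quality in the members' values was not tested.

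By mean value the members lay in the middle of the mouse-named profile, miR-221-3p at rank 362 and miR-222-3p at rank 374 of 740. In si-NC replicate 3 alone they ranked 252 and 268, and in si-NC replicate 1 miR-221-3p ranked 575. The entry just above miR-221-3p by mean, miR-12206-5p, stood at 45, 42 and 313 in the controls and at 0, 22 and 40 with the circCpsf6 siRNA, so it too was highest in si-NC replicate 3. The entry just below, a variant of mir-3470b, was listed at 154, 70 and 96 and at 59, 5 and 77. Around miR-222-3p, miR-214-5p, which is processed from the Dnm3os transcript, stood at 34, 38 and 27 in the controls and at 102, 88 and 133 with the circCpsf6 siRNA. Just below it, a variant of miR-6399 stood at 80, 114 and 0 and at 53, 120 and 51. These neighbours were picked by mean value, so their likeness to the members in mean level follows from the choice.

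Among 346 other mouse-named entries with a mean of 100 or more, the profile most like that of miR-221-3p over the 6 libraries was miR-344f-5p, of a rodent brain miRNA family (Pearson correlation 0.92 on log2(value + 1)). miR-344f-5p stood at 127, 142 and 594 in the controls and at 55, 19 and 98 with the circCpsf6 siRNA, again with si-NC replicate 3 highest and si-circCpsf6 replicate 2 lowest. Next came miR-361-5p (0.90), let-7a-1-3p (0.88), miR-28a-5p (0.87) and miR-338-3p (0.87). These were also highest in si-NC replicate 3 but varied on a far smaller scale: miR-361-5p ran only from 3810 to 4388, and the highest value of miR-338-3p was 3.00 times its lowest. The profiles most like miR-222-3p were miR-297b-5p (0.90), miR-196a-2-3p (0.86), miR-497a-5p (0.84), let-7a-1-3p (0.83) and miR-22-5p (0.83). miR-297b-5p stood at 545, 851 and 1478 in the controls and at 772, 706 and 930 with the circCpsf6 siRNA. let-7a-1-3p, the passenger arm of a let-7a hairpin, was named for both members and stood at 892, 1125 and 1393 and at 741, 827 and 926. These correlations are over 6 libraries that share normalization and depth within each library, and they were picked as the highest of many.

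**Figure D4:**
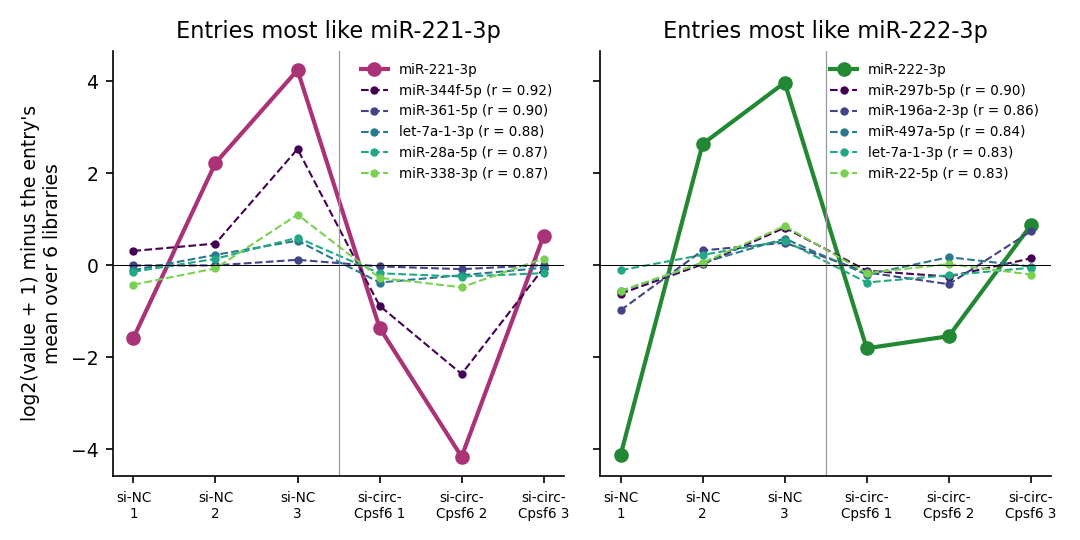
log2(value + 1) of each entry minus its own mean over 6 libraries (vertical) in each library (horizontal), for miR-221-3p (left) and miR-222-3p (right), each with the 5 entries of highest correlation. Lines only join values of 1 entry, replicates having no order. The members span a far wider range than the entries most like them, of which miR-344f-5p comes nearest.

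Other miRNAs best known for favouring proliferation were far more abundant in these cells, and none was called different between the groups. Of 11 such miRNAs listed for comparison, 10 had an entry, all with a higher mean than the members, from 3765 to 70479 normalized reads. Of these 10, 8 had a log2 change above 0 and 2 below, beside 55.7% and 44.3% of all entries, with a median of 0.11 beside 0.086 for all entries. The log2 changes ran from -0.10 to 0.44, and none passed by limma, adjusted or not. miR-21a-5p, a broadly expressed miRNA raised in many tumours, stood at 50917, 86558 and 43002 in the controls and at 67298, 113697 and 61401 with the circCpsf6 siRNA. miR-20a-5p and miR-92a-3p, of the miR-17-92 cluster, had log2 changes of 0.31 (SE 0.30) and 0.44 (SE 0.28). miR-25-3p, of the miR-106b-25 cluster, had one of -0.10 (SE 0.25). In si-NC replicate 3, where the members were highest, miR-21a-5p, miR-20a-5p, miR-92a-3p and miR-25-3p each had their lowest value of all 6 libraries. Picked out after their values were seen, miR-18a-5p, miR-19a-3p, miR-19b-3p and miR-106b-5p of the same list had their highest value there, so the list as a whole did not follow the members.

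Of 22 miRNAs best known for restraining the cell cycle, 20 had an entry, and 13 had a log2 change below 0 and 7 above, beside 44.3% and 55.7% of all entries, with a median of -0.16. None had an adjusted p under 0.05 by limma, and 7 had an unadjusted p under 0.05, beside 6.22% of all entries. These 7, all of the let-7 family, had log2 changes from -1.77 (let-7i-5p) to -1.11 (let-7b-5p). The most abundant of the list were let-7c-5p at 41674 ± 2297 for the controls and 37283 ± 2214 for si-circCpsf6 (log2 change -0.16), miR-16-5p at 38517 ± 25093 and 35850 ± 9423 (0.050), miR-26a-5p at 34817 ± 3971 and 31113 ± 2809 (-0.16), and miR-15b-5p at 14789 ± 7814 and 19966 ± 7565 (0.49). Their standard errors, from 0.24 to 0.45, were well under those of the members.

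**Figure D5:**
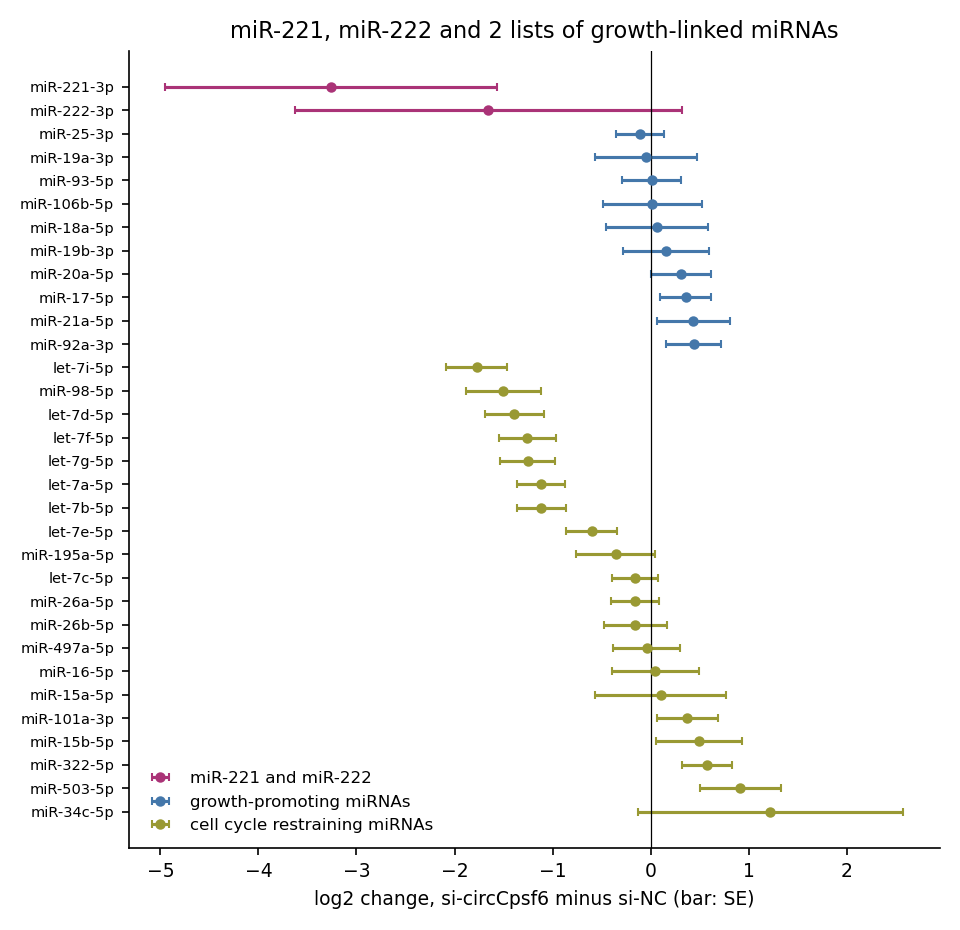
Log2 change, si-circCpsf6 minus si-NC, with its standard error as a bar (horizontal), for miR-221-3p, miR-222-3p, 10 growth-promoting miRNAs and 20 miRNAs that restrain the cell cycle. The members, at -3.26 and -1.65, have the widest bars, followed by miR-34c-5p, and the growth-promoting miRNAs lie between -0.10 and 0.44.

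All 6 neuronal markers had an entry, and they summed to 134631 to 259709 normalized reads in the controls and to 234664 to 387132 with the circCpsf6 siRNA, with miR-7a-5p the main part. The neuronal miR-9-5p and miR-124-3p had means over the 6 libraries of 148 and 393. Those of miR-128-3p, miR-138-5p, miR-218-5p and miR-7a-5p were 2914, 6279, 20672 and 218283. Among the smooth muscle and fibroblast markers, miR-143-3p had a mean of 73415, miR-145a-5p 11099, miR-199a-5p 4317 and miR-214-3p 913. Because miR-221 and miR-222 are abundant in other cell types, the markers of those were set beside them. The endothelial marker miR-126a-3p stood at 4117, 2931 and 3466 in the controls and at 4301, 2869 and 3621 with the circCpsf6 siRNA, which does not follow the order of the members. The 4 smooth muscle and fibroblast markers summed to 105495, 77926 and 66409 in the controls and to 84794 to 107228 with the circCpsf6 siRNA. Their sum was lowest in si-NC replicate 3, where the members were highest. The neuronal sum was lowest there too, at 134631. Of the neuronal markers, miR-7a-5p had its lowest value there (88548), miR-218-5p its highest (35424), and the others neither. The 5 epithelial markers of the miR-200 family summed to 197, 431 and 151 in the controls and to 62, 34 and 7 with the circCpsf6 siRNA. This sum was higher in every si-NC library, and so were miR-429-3p (19, 23 and 27, then 6, 0 and 0), miR-200a-3p and miR-200c-3p. For miR-200b-3p (74, 169 and 0, then 13, 9 and 0) and miR-141-3p (5, 11 and 27, then 8, 0 and 0) the groups overlapped. Of all entries tested, 11.7% had groups that did not overlap. Of 3 blood markers only miR-451a had an entry, at 17 in si-NC replicate 2, at 4 in si-circCpsf6 replicate 1 and at 0 elsewhere. Of 3 muscle markers, 2 had an entry, together at 49 to 132 in the controls and 43 to 72 with the circCpsf6 siRNA, and the liver marker miR-122-5p was at 5 in si-NC replicate 2 and at 0 elsewhere. The part of other cells in the members' values was not tested. In libraries made from whole cultures, fewer cells that hold a miRNA and less of it per cell cannot be told apart.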

How the data were processed

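Small RNA libraries of 3 si-NC and 3 si-circCpsf6 samples of N2A cells were grouped by their titles. Per the labels' protocols, Trizol was used to extract RNA and a TruSeq small RNA kit to make the libraries. Per the submitters' processing notes the build was mm9. Not given in the sources used here are the aligner, the counting, the normalization and the release of miRNA names. Each library's column holds normalized read numbers made by the authors, per the file headers, rounded to whole numbers and treated here as a score, not as raw reads. The authors also deposited a ratio (fold) of the group means, its log2 value and an unadjusted p-value, per the file headers, and these are printed only where credited to them. Library totals ran from 2570449 to 3268351 and give no depth.

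Of 1080 entries, 1046 were left after rows with identical values were merged where 3 or more libraries were above 0 or the names matched. Neither member was merged. The 916 with a mean of 1 or more were tested with limma 3.58.1 (trended variance, R 4.3.3) on log2(value + 1), two-sided, with a term for group and no other, and p-values were adjusted by Benjamini-Hochberg over all 916 at 0.05. Log2 changes refer to log2(value + 1), so the size of a change depends on the pseudocount for low entries, and a larger pseudocount gave a smaller change for miR-221-3p and a larger one for miR-222-3p. The fit was tested on simulated data. The members, the lists and the rule for named entries were chosen with earlier results of these data known. That rule named every member, other entries with their seed, the 5 most correlated entries of mean 100 or more for each member, the nearest entries by mean, and up to 4 of the most abundant miRNAs per list. miR-9-5p, miR-124-3p, miR-143-3p, miR-429-3p, miR-34c-5p, miR-126a-3p, miR-451a and miR-122-5p were named as markers or exceptions with their values known. So were miR-200a-3p, miR-200b-3p, miR-200c-3p, miR-141-3p and the other neuronal and smooth muscle and fibroblast markers. The alternatives tried were pseudocounts of 0.1 and 5, other filters (mean of 10 or more, or none) and scalings, the replicate number as a block, weights per library, identical rows kept apart, and each library left out. Other calculations used Python 3.11.15, numpy 2.4.6, pandas 2.3.3 and matplotlib 3.10.9.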

Additional observations from a re-analysis of the deposited data

How the results depend on the processing

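Neither member was called under any of 15 alternatives, the adjusted p by limma running from 0.442 to 0.979 for miR-221-3p and from 0.501 to 1 for miR-222-3p. miR-221-3p stayed below 0 in all 15, from -4.86 to -1.58, and its value ran from -4.86 to -1.95 with 1 library left out. miR-222-3p stayed below 0 in 14, from -4.13 to -0.082 with 1 library left out, and turned to 0.089 with weights per library, where the cause was not tested. The difference of the summed means, -246, ran from -378 to -73.7 with 1 library left out. With weights per library 31 entries passed after adjustment and 210 before it, against 0 and 57 as reported. With 1 library left out 0 to 4 passed after adjustment and 45 to 127 before it, both highest without si-NC replicate 3. Same-numbered libraries of the groups deviated with correlations of 0.047, 0.479 and 0.400, and differently numbered ones with -0.441 to 0.184. Deviations from a group's own mean are tied to each other, so these values cannot settle whether the numbers mark pairs. With the replicate block 87 entries passed before adjustment and 0 after it, and the members' log2 changes were -3.26 (adjusted p = 0.442) and -1.65 (0.657) by limma. Not every library correlated best with its own number. The planned comparison of the 3p and 5p arms was not run, since no entry was matched for either 5p arm. With values from 0 to 340 and unknown depth, low values of the members cannot be told from absence.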
